A study of Mus musculus with 24 samples.

Results

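Interferon-stimulated genes are the genes that cells switch on after an interferon binds its receptor, and 41 of them were followed here, out of 29742 gene names on the array. They were taken by name and not by their values, as transcription factors, nucleic acid sensors, the OAS and IFIT families, dynamin-like and guanylate-binding GTPases, the ISG15 system with TRIM proteins, PARP proteins and other effectors. Blood RNA came from male C57BL/6J mice in 4 groups of 6, and every mouse had its own array. Young mice were 2 months old and old mice 21 months old, and at each age 1 group received an x-ray dose of 4 Gy and the other was not irradiated. Blood was drawn from the heart 24 h after exposure, and no agent other than x-rays distinguished the groups. Levels are given as the log2 signal of a probe minus the median of all spots of its array that are not controls, so that 1 unit is a 2-fold difference.

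Type I interferons bind the IFNAR1 and IFNAR2 chains, and the kinases JAK1 and TYK2 at that receptor phosphorylate transcription factors that include STAT2. A complex that holds STAT2 and IRF9 then binds the interferon-stimulated response element in the promoters of its target genes. The products of those genes sense foreign or misplaced nucleic acids, degrade or block RNA, modify proteins with ISG15 and raise the level of the sensors and of the transcription factors themselves, and in blood they are a standard readout of interferon exposure. Interferon gamma uses a separate receptor, and its signal acts through the gamma-activated site.

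RefSeq windows of 300 bases, with 250 before and 50 after a gene's start, were given for 31 of the 41 members (build GRCm38.p6). The core of the response element, taken as GAAA and again GAAA after 2 bases of any kind and read on either strand, was found in the windows of 15 of these 31 members, against 3.99% of the 27025 gene symbols with a window. The gamma-activated site TTCNNNGAA was found for 7 of the 31, against 9.55% of all symbols. Overlapping matches were counted separately. In *Bst2* a gamma-activated site overlapped a core. The stretches below lie upstream of the start and are shown because they carry the element in members that rose most after irradiation (*Ifit3*, *Oas1a*), in an antiviral membrane protein and a transcription factor of the pathway (*Bst2*, *Stat2*), and in members that did not rise (*Isg15*, *Oas3*, *Rsad2*). Each is written 5′ to 3′ along the gene, and capitals mark the core, which on the opposite strand reads TTTC and again TTTC.
Ifit3 (chr19:34583343-34583446, + strand): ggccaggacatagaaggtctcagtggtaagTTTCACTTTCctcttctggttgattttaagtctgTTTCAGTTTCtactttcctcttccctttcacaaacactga
Oas1a (chr5:120907526-120907575, - strand): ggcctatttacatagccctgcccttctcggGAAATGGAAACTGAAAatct
Bst2 (chr8:71537557-71537632, - strand): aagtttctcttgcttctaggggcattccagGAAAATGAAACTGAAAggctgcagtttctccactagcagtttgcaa
Stat2 (chr10:128270248-128270315, + strand): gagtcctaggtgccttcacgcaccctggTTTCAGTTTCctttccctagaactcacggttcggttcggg
Isg15 (chr4:156200845-156200926, - strand): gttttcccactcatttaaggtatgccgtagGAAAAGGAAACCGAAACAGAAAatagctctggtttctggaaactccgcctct
Oas3 (chr5:120777695-120777764, - strand): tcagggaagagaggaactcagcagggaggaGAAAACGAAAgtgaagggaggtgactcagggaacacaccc
Rsad2 (chr12:26456533-26456602, - strand): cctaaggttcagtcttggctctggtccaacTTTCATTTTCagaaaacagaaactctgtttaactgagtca
Of the 15 members with a core in the window, 14 were tested, and after irradiation of young mice 11 of them rose and 1 fell. Of the 16 with a window but no core, 14 were tested and 9 rose, and all 10 members without a window in the table were tested and rose. Of all genes tested, 14.4% rose and 21.4% fell in this comparison. A match is a description of the letters in this window and not of factor binding.

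**Figure D1:**
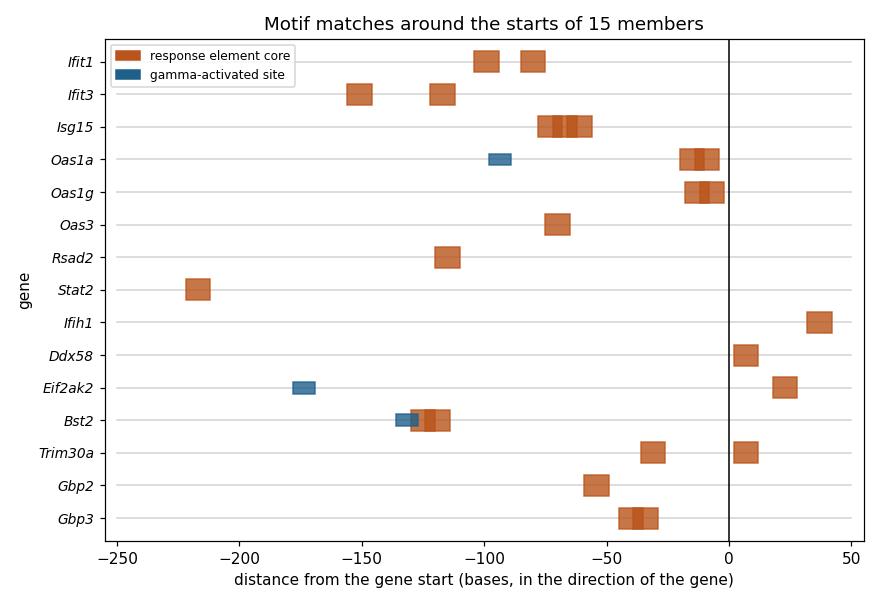
Positions of the response element core (orange) and the gamma-activated site (blue) relative to the gene start, in bases along the gene, for the 15 members with a core in a window of 250 bases before and 50 after the start. Most matches lie before the start, *Isg15* has 3 that overlap, and the cores of *Ifih1*, *Ddx58* and *Eif2ak2* lie after it.

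The arrays came from 6 slides of 4, each slide holding mice of a single age, with 1 slide at each age that held 2 mice of each treatment and the other slides mice of a single treatment. Treatment and slide thus overlap in part, and all young arrays were scanned on 1 day and all old arrays on another, so scan day and age cannot be told apart. Between 43.9% and 64.4% of spots were well above background on an array. The radiation labels held, since *Cdkn1a*, the p53-driven inhibitor of cyclin-dependent kinases, rose by 5.06 ± 0.33 (SE) in young and by 3.96 ± 0.30 in old mice, and *Phlda3*, another p53 target, by 3.24 ± 0.15 and 2.15 ± 0.31. Old irradiated replicates 4 and 6 stood apart from their group, with mean correlations to its other mice of 0.897 and 0.888 against 0.918 to 0.931 for the other 4 mice. They also had the lowest median signals of all 24 arrays, 8.66 and 8.84, against 18.3 to 33.1 in the rest of their group and 14.4 on the next lowest array, and levels are relative to that median. The part of this low signal was not tested, and results that rest on them are given with and without them. Of the 41 members, 38 passed the filters and were tested. *Oas1g* lacked significant signal on 10 of the 24 arrays, where the filter drops a probe at 25% or more, and *Herc6* and *Adar* varied too little to enter. A gene was called a DEG at p below 0.005 with a Benjamini-Hochberg adjusted p below 0.05 over all 17472 genes tested by limma.

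In young mice most members rose after 4 Gy. Of the 38 tested, 30 rose, 1 fell and 7 were not called, beside a background of 35.8% of all genes tested that were called, 14.4% higher and 21.4% lower. At an unadjusted p below 0.05 there were 31 members, against 53.6% of all genes. The 6 irradiated mice were all above the 6 unirradiated mice for 29 members and all below for 1, where 9.58% and 15.4% of all genes were so separated. The median difference of the members was 1.52 on the log2 scale, while the median of all genes was -0.20. With slide as a fixed block, which compares the 2 and 2 mice of the slide that held both treatments, 22 members rose and 0 fell, where 10.4% of all genes were called, and *Mx2*, *Rsad2*, *Irf9*, *Stat2*, *Ddx58*, *Parp9*, *Parp14*, *Trim30a* and *Ifi35* were no longer called. The named difference in each sentence that follows is irradiated minus unirradiated, fitted by limma.

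**Figure D2:**
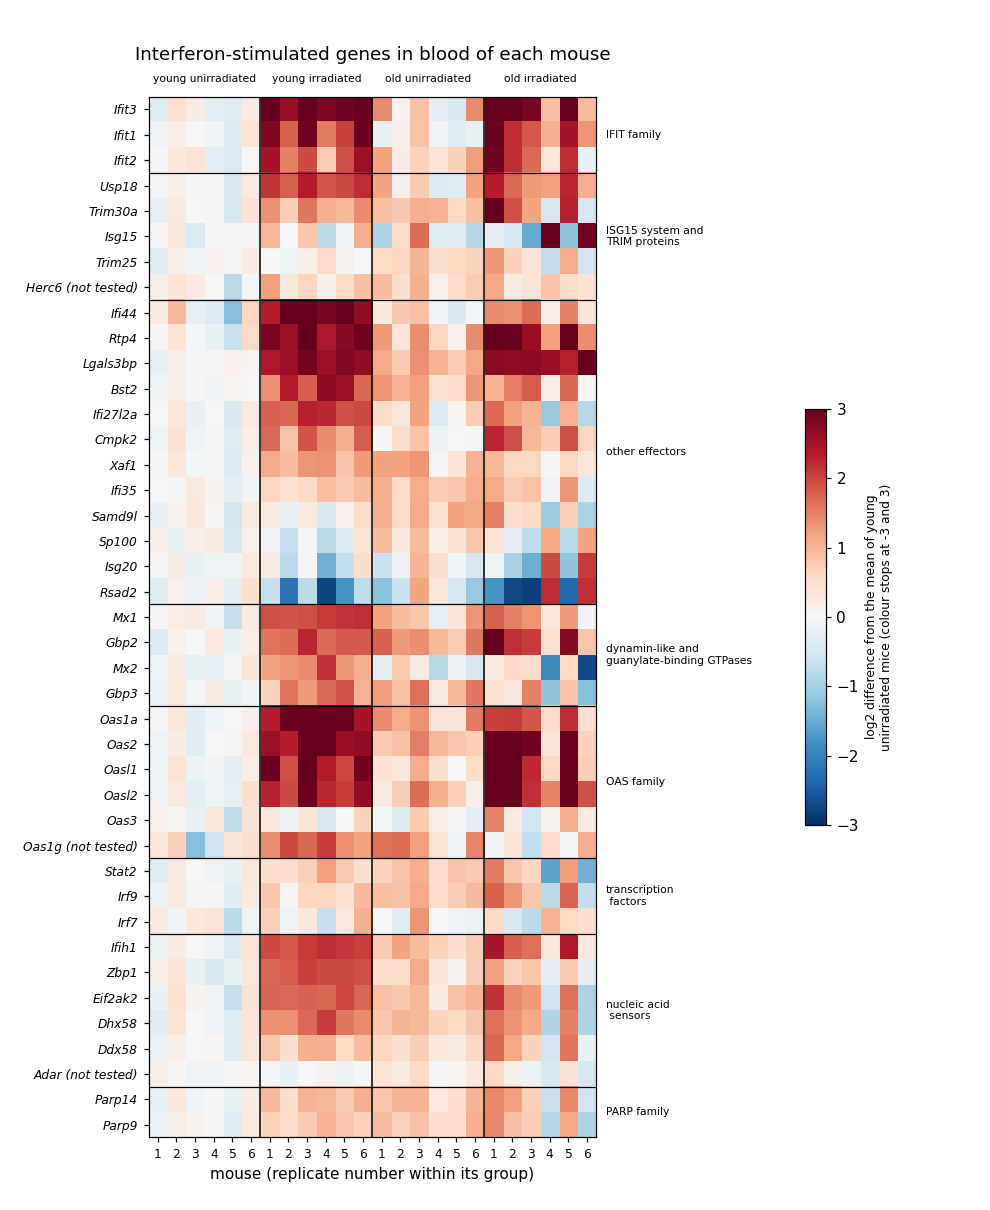
Log2 difference of each of the 41 members from the mean of young unirradiated mice, in each of the 24 mice (columns, by group and replicate), with members in rows by role. Young irradiated mice are red throughout most rows. Old irradiated replicates 4 and 6 are lower than the other 4 mice of their group in most rows. For members such as *Mx2*, *Stat2* and *Gbp3* they lie below the young unirradiated mean. They are higher than the other 4, and red, for *Isg15*, *Isg20* and *Rsad2*.

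Among the transcription factors, *Stat2*, a subunit of the complex that binds the response element, was at a log2 signal of 4.39 (lowest), 4.66 (median) and 5.01 (highest) in young unirradiated mice and at 5.19, 5.32 and 5.92 in young irradiated mice. The groups did not overlap, and *Stat2* rose by 0.71 ± 0.17 (SE, n = 6 per group, limma adjusted p = 0.00402). *Irf9*, the DNA-binding subunit of that complex, rose by 0.60 ± 0.17, in groups that overlapped, and it was no longer called without any 1 of 9 arrays. *Irf7*, which amplifies interferon alpha production, ranged from 4.27 to 5.43 (median 5.16) in unirradiated and from 4.37 to 6.12 (median 5.35) in irradiated mice. Its ranges lay over each other, and the difference of 0.27 was not called, with a 95% interval of -0.36 to 0.89.

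All 5 nucleic acid sensors that were tested rose. *Ifih1*, which encodes the long double-stranded RNA sensor MDA5, was at 2.08, 2.45 and 2.88 without and at 4.33, 4.55 and 4.70 with irradiation. Every irradiated mouse was above every unirradiated mouse, and the rise was 2.05 ± 0.15 (limma adjusted p = 1.36e-06). *Zbp1*, a sensor of Z-form nucleic acid, rose by 1.91 ± 0.17 and *Eif2ak2*, the kinase that halts translation on double-stranded RNA, by 1.78 ± 0.19. *Dhx58*, a helicase that regulates the other RNA helicase sensors, rose by 1.59 ± 0.18, and *Ddx58*, which encodes RIG-I, by 0.84 ± 0.16. *Adar*, which edits double-stranded RNA, differed by -0.06 ± 0.11 in a fit without the filter on variation and was not called there.

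The OAS proteins make oligoadenylates that activate an RNA-degrading enzyme, and 4 of the 5 members of the family that were tested rose. *Oas1a* was at 4.78, 5.07 and 5.45 in unirradiated and at 7.44, 8.10 and 8.54 in irradiated young mice. The groups lay far apart, and *Oas1a* rose by 2.90 ± 0.20, or 7.47-fold (limma adjusted p = 7.44e-07). *Oas2* went from 3.20, 3.49 and 3.83 to 5.90, 6.16 and 7.05, a rise of 2.85 ± 0.21 (limma adjusted p = 1.48e-06). *Oasl1* and *Oasl2*, relatives that carry ubiquitin-like domains, rose by 2.56 ± 0.23 and 2.37 ± 0.20. *Oas3*, in contrast, differed by 0.12 ± 0.24 with a 95% interval of -0.40 to 0.64, and was not called although its window holds the core shown above. *Oas1g* had a signal well above background in 1 of the 6 young irradiated mice and in 0 mice of the other groups, and no difference is given for it.

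The IFIT proteins bind foreign RNA and all 3 members rose. *Ifit3* had the largest rise of any member, 3.44 ± 0.31 or 10.9-fold (limma adjusted p = 5.56e-06), from 3.09, 3.43 and 3.91 to 6.07, 6.87 and 7.73, with no overlap. *Ifit1* rose by 2.34 ± 0.26 and *Ifit2* by 1.87 ± 0.28. The 4 GTPases also rose. *Mx2*, a dynamin-like antiviral GTPase, went from 0.96, 1.12 and 1.55 to 2.29, 2.52 and 3.36, a rise of 1.42 ± 0.19 in groups that did not overlap. Its relative *Mx1* rose by 2.03 ± 0.17, and the guanylate-binding proteins *Gbp2* and *Gbp3*, which act on vacuoles and pathogens, by 1.82 ± 0.16 and 1.37 ± 0.21.

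The ISG15 system was split. *Isg15*, the ubiquitin-like protein that is conjugated to targets and a textbook interferon readout, was at 8.94, 9.38 and 9.66 in unirradiated and at 8.56, 9.75 and 10.45 in irradiated young mice. The irradiated range enclosed the unirradiated range, and the difference of 0.34 ± 0.30 was not called (95% interval -0.30 to 0.98). A second *Isg15* probe gave 0.41, so the small difference did not depend on the probe. *Usp18*, the protease that removes ISG15 and dampens receptor signalling, rose by 2.05 ± 0.16, and *Trim30a*, a TRIM protein, by 1.2 ± 0.20. *Trim25*, the ubiquitin ligase that acts on RIG-I, differed by 0.12 with the probe that stood for the gene (chr11:88881521-88881580, mm9) and by -1.03 with its other probe (chr11:88874956-88875015), so its direction depended on the probe. *Herc6*, the ligase that attaches ISG15 in mice, differed by 0.64 ± 0.23 in the fit without the variation filter, which was not called. A second *Herc6* probe gave 1.17, so the size of its difference depended on the probe. Both PARP proteins rose, *Parp14* by 0.90 ± 0.15 and *Parp9* by 0.77 ± 0.15.

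**Figure D3:**
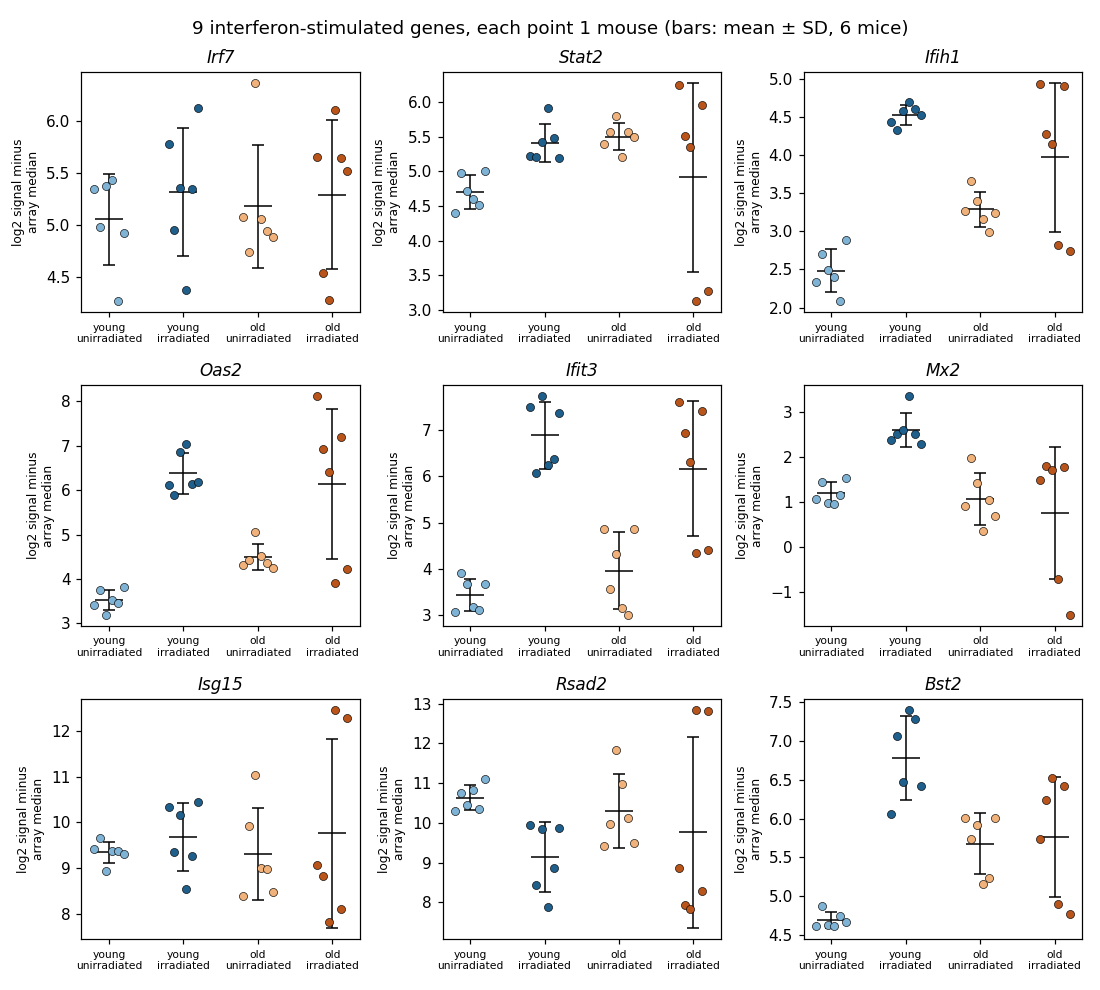
Log2 signal minus the array median of 9 members in each mouse, with points for mice and bars for the mean ± SD of 6 mice. *Ifih1*, *Oas2*, *Ifit3*, *Mx2* and *Bst2* separate the young groups without overlap, *Irf7* and *Isg15* do not, and *Rsad2* is lower in young irradiated mice.

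Of the 12 other effectors, 8 rose, 1 fell and 3 were not called. *Ifi44*, an antiviral cytoplasmic protein, was at -2.59, -1.31 and -0.34 without irradiation, where 2 of 6 mice had a signal well above background, and at 1.04, 1.70 and 2.27 with it, a rise of 3.0 ± 0.35. *Rtp4*, a receptor transporter with antiviral activity, went from 4.42, 5.03 and 5.66 to 7.50, 7.88 and 8.10, a rise of 2.76 ± 0.21. *Bst2*, or tetherin, which holds budding virions at the membrane, went from 4.61, 4.65 and 4.88 to 6.05, 6.77 and 7.40. In each of these genes the groups did not overlap, and *Bst2* rose by 2.09 ± 0.22 (limma adjusted p = 1.82e-05). *Lgals3bp*, a secreted galectin ligand, rose by 2.66 ± 0.13, *Ifi27l2a* by 2.00 ± 0.17, *Cmpk2*, a mitochondrial nucleotide kinase, by 1.46 ± 0.21, *Xaf1*, an apoptosis regulator, by 1.14 ± 0.15 and *Ifi35* by 0.72 ± 0.14.

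The single fall was that of *Rsad2*, or viperin, a radical-SAM enzyme that blocks viral replication. It was at 10.31, 10.61 and 11.11 in unirradiated and at 7.88, 9.36 and 9.95 in irradiated young mice, all of them lower, and it fell by 1.5 (SE 0.35) on the log2 scale, with an adjusted p of 0.0036 from limma. This call was lost with normexp (-0.84, adjusted p = 0.606), with slide as a fixed block (-1.53, adjusted p = 0.146) and in 1 fit of all 24 arrays (adjusted p = 0.132, limma). *Rsad2* and *Cmpk2*, which are neighbours in the genome, thus moved in opposite directions. *Isg20*, an exonuclease, differed by -0.37 ± 0.29, *Sp100*, a nuclear body protein, by -0.28 ± 0.22 and *Samd9l* by 0.10 ± 0.20, none of them called.

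Whole blood loses lymphocytes after irradiation, and in such bulk samples fewer cells of a type and less RNA per cell cannot be told apart. In young mice all 10 B cell markers and 8 of 10 T cell markers fell, 5 of 8 NK cell markers and 5 of 12 neutrophil markers rose, and all 8 macrophage markers tested and all 8 platelet markers rose. Of 8 plasmacytoid dendritic cell markers 6 fell, of 8 reticulocyte markers 5 fell and 1 rose, and of 9 monocyte markers 3 rose and 1 fell. In old mice 9 of 10 B cell, 1 of 10 T cell, 2 of 8 plasmacytoid dendritic cell and 3 of 9 monocyte markers fell. All 8 platelet markers rose there, with 1 of 8 macrophage and 1 of 9 monocyte markers. Of the 6 hepatocyte markers tested, 5 rose in old and 0 in young mice. No NK cell, neutrophil or reticulocyte marker was called in old mice. Of all genes tested, 14.4% rose and 21.4% fell in young mice, and 7.60% rose and 17.4% fell in old mice. The summed level of the 10 B cell markers, as log2, lay between 10.72 and 11.02 in young unirradiated and between 7.75 and 9.23 in young irradiated mice. That of the 10 macrophage markers lay between 5.74 and 8.86 and between 9.60 and 11.55. That of the 10 hepatocyte markers lay between 3.10 and 11.14 and between 3.93 and 14.80, so both groups held mice with such RNA. The part of these cell types in the members' rises was not tested.

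In old mice 7 members were called, and irradiated mice varied more than at the young age. The median SD over the members was 1.02 in old and 0.343 in young irradiated mice, and over all genes 0.866 and 0.465. Of the 38 tested, 7 rose and 0 fell, beside a background of 25% of all genes called, 7.60% higher and 17.4% lower, and 10 members had an unadjusted p below 0.05, against 44.9% of all genes. The 7 were *Ifit3* (2.20 ± 0.62), *Oasl1* (2.03 ± 0.59), *Ifit1* (1.98 ± 0.36), *Oasl2* (1.94 ± 0.44), *Rtp4* (1.75 ± 0.48), *Lgals3bp* (1.62 ± 0.21) and *Cmpk2* (1.22 ± 0.34). All 7 had also risen in young mice, 24 members were called in young mice alone, and 7 were called at neither age. The median difference of the members was 0.16, with all genes at -0.25. Groups did not overlap for 2 members, *Ifit1* and *Lgals3bp*, against 5.92% of all genes that were higher without overlap, and 0 members were lower without overlap, against 16.8%. Leaving out old unirradiated replicate 4 or 5, or old irradiated replicate 1, 2 or 5, left 3 members called. Leaving out old unirradiated replicate 2 or old irradiated replicate 3 left 4. Of all genes, 20.2% were called without old unirradiated replicate 2 and 23.6% without old unirradiated replicate 4, against 25% with every array. *Ifit1*, *Oasl2* and *Lgals3bp* were called whichever array was left out. Within the slide that held both treatments, with 2 mice of each and neither old irradiated replicate 4 nor 6, these 3 were called, at 2.94, 3.10 and 1.74. Of all called genes 30.4% were higher after irradiation, and this share was 49.0% with scaling to the 75th percentile and 54.4% with scaling to bright probes.

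*Lgals3bp* was the steadiest member at this age. Its log2 signal was 7.17, 7.52 and 7.80 in old unirradiated and 8.75, 9.11 and 9.38 in old irradiated mice, with a limma adjusted p of 0.000386. *Ifit3* was at 3.02, 3.95 and 4.87 without and at 4.35, 6.62 and 7.62 with irradiation, *Oasl1* at 3.95, 4.41 and 5.07 and at 4.57, 6.75 and 8.01. Both overlapped, because the lowest 2 irradiated mice reached down into the unirradiated range. *Ifit1* went from 2.09, 2.29 and 3.29 to 3.51, 4.47 and 5.52, *Oasl2* from 5.08, 5.60 and 6.55 to 6.36, 7.50 and 8.94 and *Rtp4* from 5.21, 6.04 and 6.50 to 6.32, 7.86 and 9.08. Of these 3, *Oasl2* and *Rtp4* overlapped slightly and *Ifit1* did not.

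The other presets were not called in old mice. *Oas2* was at 4.25, 4.39 and 5.06 without and at 3.92, 6.67 and 8.11 with irradiation, so irradiated mice lay on both sides of the unirradiated group, and the difference was 1.64 ± 0.63 (limma adjusted p = 0.0574). *Ifih1* was at 2.99, 3.25 and 3.67 and at 2.74, 4.21 and 4.94, a difference of 0.69 ± 0.40. *Stat2* was at 5.21, 5.53 and 5.80 and at 3.12, 5.43 and 6.25, a difference of -0.59 ± 0.52. *Bst2*, at 5.15, 5.83 and 6.01 and at 4.77, 5.98 and 6.52, differed by 0.08 ± 0.35. These groups lay over each other, whereas those of young mice had been apart. *Mx2* was at 0.36, 0.99 and 1.99 and at -1.50, 1.61 and 1.80, with 4 of 6 irradiated mice well above background. *Irf7* was at 4.74, 5.0 and 6.37 and at 4.28, 5.58 and 6.10.

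*Isg15* and *Rsad2* had the widest spread among the old irradiated mice. *Isg15* was at 8.40, 9.0 and 11.03 in old unirradiated and at 7.84, 8.95 and 12.45 in old irradiated mice, and *Rsad2* at 9.41, 10.05 and 11.82 and at 7.83, 8.57 and 12.85. Their SDs in the irradiated group were 2.06 and 2.41, against 0.75 and 0.88 in young irradiated mice, and neither difference (0.46 and -0.54) was called.

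**Figure D4:**
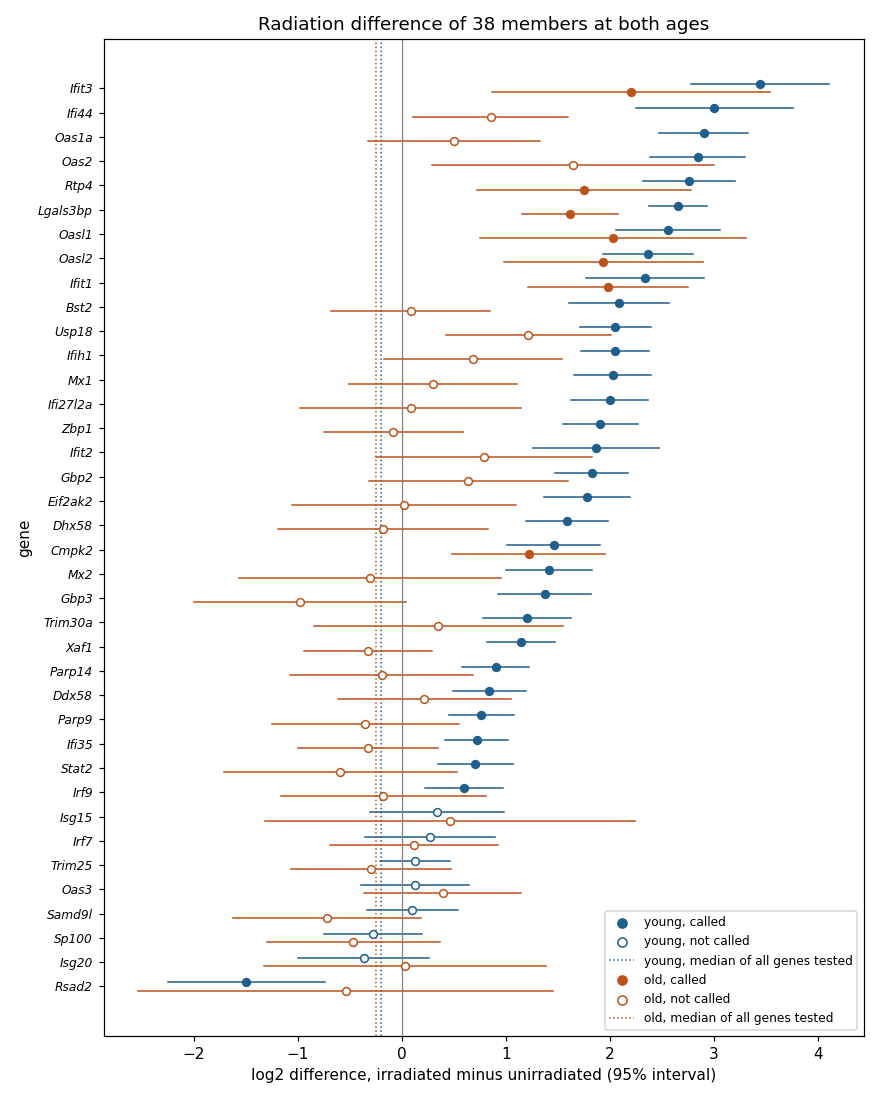
Log2 difference, irradiated minus unirradiated, with its 95% interval for the 38 members tested, in young (blue) and old (orange) mice, with filled points for called differences and dotted lines at the median of all genes tested. In young mice 30 members are called to the right of 0 and *Rsad2* to the left, in old mice 7 to the right, and the old intervals are wider.

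This spread followed 2 mice. Old irradiated replicates 4 and 6 were the lowest 2 of 6 for 31 of the 38 members (81.6%), while this held for 46.2% of all genes. *Oas2* was at 3.92 and 4.22 in them and between 6.42 and 8.11 in the other 4 mice, *Stat2* at 3.12 and 3.27 against 5.36 to 6.25, and *Mx2* at -0.71 and -1.50 against 1.49 to 1.80. For 4 members the same 2 mice were the highest instead (10.5%, against 32.4% of all genes), namely *Rsad2*, *Isg15*, *Isg20* and *Sp100*. *Rsad2* was at 12.85 and 12.82 in them and between 7.83 and 8.86 in the others. *Isg15* was at 12.45 and 12.26 against 7.84 to 9.07, and *Isg20* at 14.34 and 14.48 against 10.92 to 12.25. *Lgals3bp*, *Irf7* and *Oas3* did not follow either order.

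Without these 2 mice, a comparison chosen after their values were seen, 18 members rose and 2 fell in old mice, where 34.7% of all genes were called. The 7 members called with all mice were among them, and 19 of the 20 had also been called in young mice. *Ifit3* then rose by 3.10, *Oasl1* by 2.94, *Oas2* by 2.67 and *Ifih1* by 1.28. *Rsad2* fell by 2.08 and *Sp100* fell by 0.97. *Bst2* (0.55), *Mx1* (0.74), *Mx2* (0.63), *Stat2* (0.27) and *Zbp1* (0.30) were still not called.

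Cell markers also set these 2 mice apart. Their summed reticulocyte markers were 15.84 and 16.02 against 13.19 to 14.20 in the other 4 mice, and their summed NK cell markers 8.46 and 8.52 against 9.47 to 10.37. Summed neutrophil markers were 12.47 and 12.72 against 13.35 to 15.05. Old irradiated replicates 2, 3 and 5 carried hepatocyte markers, with sums of 13.66, 13.71 and 14.18 against 3.03 to 7.17 in the others and 1.53 to 2.26 in old unirradiated mice. Without those 3 mice, 2 members rose (*Ifit1* and *Lgals3bp*) and 1 fell (*Gbp3*), where 40.5% of all genes were called. The part of any of these cell types in the difference between the mice was not tested.

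**Figure D5:**
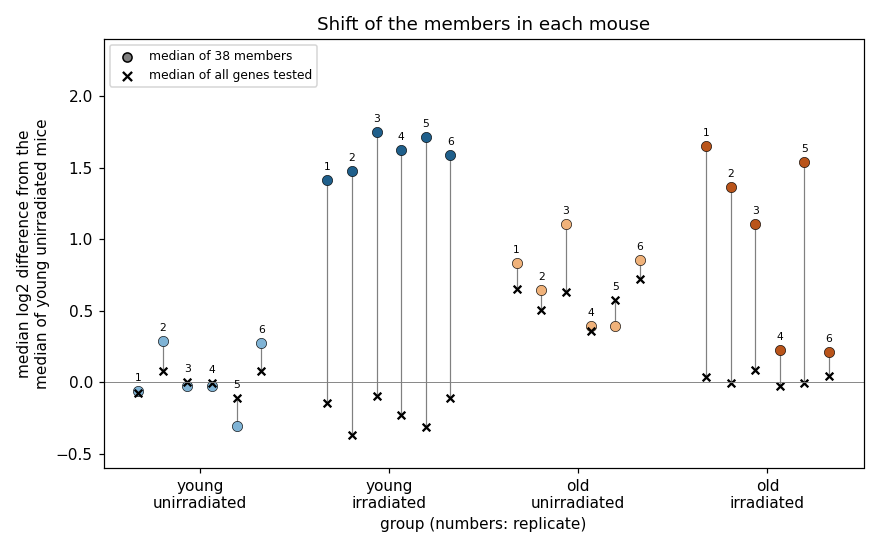
Median log2 difference from the young unirradiated median over the 38 members (circles) and over all genes tested (crosses) in each mouse, numbered by replicate. Circles of young irradiated mice lie between 1.41 and 1.75 with crosses below 0, and among old irradiated mice replicates 4 and 6 lie at 0.23 and 0.21 and the other 4 between 1.11 and 1.65.

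Without irradiation, members were higher in old than in young mice, but so were most genes. Of the 38, 21 were called higher and 0 lower, with 63.8% of all genes called, 48.2% higher and 15.5% lower, and 26 members had an unadjusted p below 0.05, against 78.9% of all genes. The groups were apart for 14 members, all higher in old mice, against 37.4% of all genes, and 0 members were lower without overlap, against 11.3%. The median difference, old minus young, was 0.75 for the members and 0.63 for all genes, which leaves 0.12. That remainder was 0.46 without the dim filter, 0.24 with 75th percentile scaling, 0.25 with bright-probe scaling, 0.05 with the stricter dim filter and 0.03 with quantile normalization. *Gbp2* differed most, with 3.55, 4.00 and 4.25 in young and 4.71, 5.28 and 5.72 in old mice, a difference of 1.29 ± 0.19 that is 0.67 above the median of all genes. *Gbp3* was at 3.98, 4.14 and 4.5 in young and at 4.43, 5.32 and 5.86 in old mice and differed by 1.09 ± 0.22, in groups that overlapped slightly. *Lgals3bp* was at 6.16, 6.43 and 6.58 and at 7.17, 7.52 and 7.80, without overlap, and differed by 1.04 ± 0.14. *Oas1a* (4.78, 5.07 and 5.45 against 5.48, 6.33 and 6.66) and *Bst2* (4.61, 4.65 and 4.88 against 5.15, 5.83 and 6.01) did not overlap either, with differences of 1.04 ± 0.22 and 0.98 ± 0.17. Among the rest of those called, *Oas2* (0.96), *Irf9* (0.87), *Stat2* (0.80) and *Ifih1* (0.80) were higher in old mice, while *Ifit1* (0.02), *Isg15* (-0.04), *Rsad2* (-0.34) and *Irf7* (0.13) were not called.

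This age difference depended on the scaling of the arrays. With the 75th percentile as the reference, the median of all genes moved from 0.63 to -0.02, the share of called genes that were higher in old mice moved from 75.7% to 27.9%, and 2 members were called, *Gbp2* (0.77) and *Lgals3bp* (0.52). The share was 42.5% after quantile normalization and 20.6% with the median of bright probes, with 1 member called in each. The authors' deposited values gave 0 members, with 17.2% of called genes higher. Summed neutrophil markers lay between 10.66 and 11.89 in young and between 12.52 and 14.13 in old unirradiated mice, and their part in these differences was not tested.

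Among irradiated mice, 2 members were lower in old than in young mice, where 2.00% of all genes were called, 1.40% higher and 0.601% lower. *Ifi44* was at 1.04, 1.70 and 2.27 in young and at -1.13, 0.07 and 0.36 in old irradiated mice and differed by -1.92 (95% interval -2.65 to -1.19, limma adjusted p = 0.0198). *Zbp1* was at 6.33, 6.54 and 6.66 and at 4.33, 5.33 and 5.83, a difference of -1.41 (95% interval -2.05 to -0.78, limma adjusted p = 0.0354). Neither pair of groups overlapped, and the old irradiated group was lower without overlap for 6 members in all (*Ifi44*, *Zbp1*, *Oas1a*, *Mx1*, *Mx2* and *Ifi27l2a*), against 0.612% of all genes, and 0 members were higher without overlap, against 4.45%. At an unadjusted p below 0.05 there were 9 members, against 21.4% of all genes. Of all called genes 70.0% were higher in old mice, and 24.6% with scaling to the 75th percentile. *Lgals3bp* differed by 0.01 between the ages (95% interval -0.45 to 0.46). All 8 macrophage markers tested were below 0 in this comparison, with a median of -3.07 and an unadjusted p below 0.05 for each, though 0 were called by limma, and their part in it was not tested. Without old irradiated replicates 4 and 6, 5 members were lower, the 2 above with *Oas1a*, *Mx2* and *Ifi27l2a*. In that setting 28.5% of all genes were called. *Ifi44* was no longer called without young irradiated replicate 2 or 3, nor was *Zbp1* without any 1 of the 6 young irradiated mice or without old irradiated replicate 2 or 5.

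Whether the response to irradiation differed between the ages was tested by the interaction over all 24 arrays. limma called 0 members and 0 of the 17472 genes, and 0 members were called by the random variance test that the study used. At an unadjusted p below 0.05 there were 19 of 38 members, against 23.6% of all genes. The estimate, old response minus young response, was below 0 for 34 of the 38, with a median of -1.06 for the members and -0.24 for all genes. *Oas1a* had the lowest, -2.40 (95% interval -3.31 to -1.50, limma adjusted p = 0.0615), followed by *Gbp3* (-2.35), *Ifi44* (-2.15), *Bst2* (-2.01) and *Zbp1* (-1.99). The estimates of *Rsad2* (0.96), *Isg20* (0.40), *Oas3* (0.27) and *Isg15* (0.12) were above 0. Macrophage markers had a median interaction of -2.91 (7 of 8 below 0) and monocyte markers of -1.25 (9 of 9 below 0), and their part in the members' estimates was not tested. Leaving out old irradiated replicate 3 led to 10 members called, a count given here without the share of all genes called in that fit. Without replicates 2, 3 and 5, the mice with hepatocyte markers, there were 17, all lower, where 34.2% of all genes were called. Without old irradiated replicates 4 and 6 there were 3 (*Oas1a*, *Zbp1* and *Lgals3bp*, all lower), where 0.149% of all genes were called.

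Upstream of the members, no interferon ligand was called in young mice. Of 19 ligands listed, 9 could be tested, and limma called 0 of them in young mice, against 35.8% of all genes. At an unadjusted p below 0.05 there were 3 of the 9, against 53.6% of all genes. *Ifna1* was at a mean of 4.06 in young unirradiated and 3.76 in young irradiated mice, a difference of -0.30 ± 0.29. *Ifng*, made by NK and T cells, differed by 1.19 ± 0.35 in young mice, which was not called, and rose by 1.61 ± 0.36 in old mice. It was the 1 ligand of 9 called in old mice, where 7.60% of all genes rose. *Ifna5* (-1.06), *Ifna14* (-0.82), *Ifnl3* (-0.25), *Ifnab* (-0.18), *Ifna12* (0.20), *Ifna2* (0.30) and *Ifna11* (0.62) were not called in young mice, and neither were they in old mice. In old compared with young unirradiated mice 7 of the 9 ligands were lower, among them *Ifna1* (-2.32) and *Ifnl3* (-1.74), against 15.5% of all genes. As given above, calls in this comparison depended on the scaling of the arrays, and scan day and age cannot be told apart. The interferon alpha genes are near-identical copies, so their probes may share signal, and *Ifnb1* was not well above background in any mouse.

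Of the 10 receptor and kinase genes tested, 9 were higher in old than in young unirradiated mice, against 48.2% of all genes. Their median difference was 0.99, with all genes at 0.63. The limits of scaling and scan day given above hold for this count too. After irradiation 2 of the 10 fell in young mice, against 21.4% of all genes. These were *Ifnar1*, by 0.86 on the log2 scale, and *Ifngr2*, by 0.50 on the same scale. In old mice 1 fell, *Ifnar1* by 1.17, against 17.4% of all genes. *Ifnar2* differed by 0.49 and 0.27 in young and old mice and was called at neither age. Of the 14 sensing genes tested, 2 rose and 3 fell in young mice, shares like those over all genes (14.4% and 21.4%). *Trex1*, a DNA-degrading enzyme, rose by 1.01, and *Tmem173*, which encodes STING, fell by 1.30. In old mice *Irf5* fell by 1.97 and *Tmem173* by 1.86, and 0 rose, where 17.4% of all genes fell and 7.60% rose.

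Other targets of the same interferons were mixed. Of 30 further type I targets tested, 13 rose and 2 fell in young mice, where 14.4% of all genes rose and 21.4% fell. In old mice 2 rose and 4 fell, where 7.60% of all genes rose and 17.4% fell. The largest rise in young mice was *Gm4951* (4.29 ± 0.82) and the largest fall *Sp110*, which fell by 1.01, and in old mice *Uba7*, the enzyme that activates ISG15, rose by 1.23 and *Ifi30* fell by 2.06. Of 20 interferon gamma targets, 5 rose and 2 fell in young mice, against 14.4% and 21.4% of all genes. *Igtp*, an immunity-related GTPase, was highest at 1.98 and *Irf8* lowest at -1.64. In old mice 1 of the 20 rose, *Igtp* by 1.75, and 3 fell (*Irf8*, *Ciita* and *Psmb8*), shares like those over all genes (7.60% and 17.4%). *Irf1* (-0.17 and -0.57) and *Socs1* (0.49 and 0.01) were called at neither age.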

How the data were processed

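Blood RNA of 24 mice was measured on Agilent 1-colour arrays. The intensity values the authors deposited, 1 scanner file per array, were background-subtracted by Agilent Feature Extraction 12.0.2 and not scaled between arrays. Of 43020 spots that are not controls, non-uniform ones were treated as missing, and the log2 signal was centred on each array's median. After the study's methods, a probe was dropped when 25% or more of arrays had it flagged as non-uniform or as lacking significant signal, each gene kept its brightest probe (18737 genes), and the 17472 genes that lay 1.5-fold or more from their median in 20% of arrays were tested. The authors' deposited table of log2 values (17190 probes, array medians from 5.77 to 6.73) was used as an alternative. It correlated with the scanner values at 0.995 to 1.000. The scanner files' probes carry the gene names used.

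Each comparison of 2 groups was fitted with limma on its 12 arrays, and the interaction on 24. The members, lists and tests were chosen with earlier results of these data known, so no list was tested as a set. Every member is named by its role, with values per mouse for 9 preset members and for the 5 largest rises and falls called in a comparison. Of other lists, the called genes with the largest rise and fall are named, with the ligands and *Ifnar1*, *Ifnar2*, *Irf1* and *Socs1*. A further gene that the rule names singly, and not as a list's largest rise or fall, is not reported here. Where nothing says more about the mice, p-values measure the spread between 6 arrays a group. The signal over background limits what can be seen of dim probes.

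Alternatives were 75th percentile scaling, quantile normalization, scaling to bright probes, normexp (offset 50), the authors' values, a stricter or no dim filter, leaving off the 1.5-fold filter, averaging a gene's probes, the random variance test, a robust limma fit with a trend, 1 fit of 24 arrays, slide or replicate number as a block, and leaving arrays out. Tests were tried on simulated data. No 2 arrays of a group were closer than repeat spots (lowest ratio of spreads 4.02), so all counted separately. Replicate numbers did not pair mice: deviations of same-numbered mice from their group means correlated between -0.60 and 0.58, over 0.1 in 12 of 24 pairs. Software was limma 3.58.1 under R 4.3.3 (with the package data.table, at version 1.17.8), and NumPy 2.4.6 and Matplotlib 3.10.9 under Python 3.11.15.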

Additional observations from a re-analysis of the deposited data

Results flagged for a closer look

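Of 168 groups of 6 mice, 9 (5.36%) held a mouse far from the other 5 of its group, and chance alone flags about 5% of such groups. *Irf7* was at 6.37 in old unirradiated replicate 3, with the next mouse at 5.08. The same mouse was highest for *Oas2*, at 5.06 against 4.52, and for *Trim25*, at 8.22 against 7.86. *Eif2ak2* was at 1.76 in old unirradiated replicate 4, below the next at 2.32, and at 3.52 in young irradiated replicate 5, above the next at 3.29. *Gbp2* was at 6.24 in young irradiated replicate 3 against 5.79, and *Mx2* at 3.36 in young irradiated replicate 4 against 2.61. In young unirradiated replicate 5, *Mx1* was at 1.78 against 2.38 and *Herc6* at -0.23 against 0.54.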

How the results depend on the processing

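Medians of the members relative to all genes kept their sign in every setting run, except for unirradiated old against young mice, where the median was -0.01 with normexp and 0.12 in the setting reported. For young irradiated against unirradiated mice the count of members called was 20 with normexp, against 31, and the relative median was 2.12 with quantile normalization and 1.09 with normexp, against 1.72. In old mice the count was 0 with normexp and 3 with slide as a fixed block, against 7. The relative median with that block was 0.93, against 0.41. Of all genes, normexp called 7.09% in young mice, against 35.8%, and 0.0679% in old mice, against 25%. Slide as a fixed block called 2.87% in old mice. For unirradiated old against young mice the count was 2 with 75th percentile scaling, 1 with quantile normalization, 1 with bright-probe scaling, 0 with normexp, 0 with the authors' values and 6 in 1 fit of all arrays, against 21. For irradiated old against young mice it was 4 with quantile normalization, 4 with bright-probe scaling, 0 with normexp, 0 with the authors' values, 1 without a filter on dim probes, 1 with the mean of probes, 8 in 1 fit and 6 with slide as a random block, against 2. For the interaction it was 2 with 75th percentile scaling, 2 with quantile normalization, 2 with bright-probe scaling, 2 with the stricter dim filter and 5 with slide as a random block, against 0. Shares of all genes called moved as well. In the order above, unirradiated old against young mice gave 37.8%, 37.9%, 36.5%, 0%, 25.9% and 34.7%, against 63.8%. Irradiated old against young mice gave 1.14%, 1.32%, 0.297%, 0.256%, 0.38%, 2.03%, 14.4% and 7.68%, against 2%. The interaction gave 0.054%, 0.0469%, 0.0548%, 0.0272% and 0.183%, against 0%. The cause was not tested.

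With replicate number as a block, which did not pair the mice, 4 members were called in old mice and 0 for irradiated old against young mice. The shares of all genes called were 19.6% and 0.0114%.

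Chosen after seeing the data, leaving out old irradiated replicates 2, 3 and 5 gave 3 members for old mice, 7 for irradiated old against young mice and 17 for the interaction. Of all genes, 40.5%, 10.6% and 34.2% were called there. Leaving out replicates 4 and 6 gave 20, 5 and 3, with relative medians of 0.98 in old mice and -0.43 for the interaction. The shares of all genes called were then 34.7%, 28.5% and 0.149%. Leaving out each array in turn gave 30 to 31 members for young mice, 3 to 9 for old mice, 17 to 22 for unirradiated and 0 to 2 for irradiated old against young mice, and 0 to 10 for the interaction (2 without old irradiated replicate 1, 2 or 5, 3 without old unirradiated replicate 4). Relative medians then ran from 1.65 to 1.79, 0.31 to 0.63, 0.07 to 0.16, -0.66 to -0.31 and -0.95 to -0.65. Shares of all genes called are not given here for each of these fits.

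Of single members, *Ddx58* turned for unirradiated old against young mice (-0.0037 with 75th percentile scaling, -0.12 with quantile normalization, -0.073 with bright-probe scaling). With the authors' values *Trim25* turned to -1.30 for young irradiation and to -0.37 for unirradiated old against young mice, and *Sp100* to -0.76 for the latter. *Dhx58* turned to 0.59 in old mice without replicates 4 and 6. Dim members such as *Oas1g*, *Ifi44* and *Mx2* are limited by signal over background.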
